A study of Canis lupus familiaris with 17 samples.

Results

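The interleukin-1 and interleukin-18 family was described here by 8 genes chosen by symbol: the agonist ligands IL1B (ENSCAFG00000007249) and IL1A (ENSCAFG00000007245), the IL-1 receptor antagonist IL1RN (ENSCAFG00000007277), the signalling receptor IL1R1 (ENSCAFG00000002147), the decoy receptor IL1R2 (ENSCAFG00000002152), the ligand IL18 (ENSCAFG00000030180) and the IL-18 receptor chains IL18R1 (ENSCAFG00000002138) and IL18RAP (ENSCAFG00000002134). All 8 were found among the 20257 genes counted in each of the 17 libraries, and every member had at least 1 unique molecular identifier (UMI, a tag that marks 1 captured transcript) in all 17 dogs. In the RefSeq gene table of the assembly UU_Cfam_GSD_1.0, IL1A, IL1B and IL37 followed each other, IL18RAP stood beside IL18R1, and IL1R1 beside IL1R2.

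IL-1 beta and IL-18 are made as inactive precursors that inflammasomes mature through caspase-1, while IL-1 alpha is active without that step. Both IL-1 agonists act on IL1R1 with a shared accessory chain and switch on NF-kB. The antagonist encoded by IL1RN occupies the same receptor without signalling, and IL1R2 binds ligand but carries no signalling domain. IL-18 acts on IL18R1 paired with IL18RAP and is best known for promoting interferon-gamma release from T and NK cells.

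Circulating leukocytes came from 7 clinically healthy dogs and 10 dogs with osteosarcoma (OS), a bone tumour. All were client-owned, all were labelled wild type, and the dogs with OS still carried a primary tumour and had not been treated. Blood cells from a Ficoll gradient, labelled PBMC, were profiled by 10x single-cell RNA sequencing from the 3′ end, with 1 library per dog. The study lists an age, sex and breed for each dog, and these differed between dogs and in part between the groups. The dogs with OS covered a wider span of ages, with both the youngest and the oldest dog, and only they included intact males. The study itself names the age difference as a possible confounder. Age, sex and breed were not entered in the tests here, so their part in any difference between the groups was not tested. No capture or sequencing batch was named. The study used either a Chromium controller or a Chromium iX instrument for capture and does not say which served each dog.

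The 93013 barcodes held 7740230 to 56510134 UMIs per dog, and the shallowest library, OS dog 3, had 1332 barcodes. Filters and doublet removal left 80407 cells with a median of 3674.5 to 6718 UMIs per cell in each dog. No pair of libraries shared more than 0.375% of the barcodes of the smaller one. Cells were clustered without the 8 members and without the pathway genes listed further on, then named from markers of other genes. Most marker lists were those the study made for its own classes from dogs of this same series, with members and pathway genes taken out. Platelets, erythrocytes and mixed clusters were set aside, which left 74490 leukocytes, among them 14298 monocytes, 4929 neutrophils, 1288 dendritic cells, 26653 CD4 T cells and 14334 CD8 T and NK cells. The monocytes included 2244 cells called M-MDSC-like, after the monocytic myeloid-derived suppressor cell. The study describes such suppressor cells as immature and strongly immune suppressive, and suppression was not measured here. All 10 of 10 neutrophil markers were detected in the M-MDSC-like cells, as they also were in dendritic, CD4 T and CD8 T and NK cells. The summed level of these markers is given in CPM (counts scaled to a common total within each dog and class). It was 12111 to 18223 CPM over dogs, against 4667 to 7317 CPM in all monocytes, which include these cells. In neutrophils it was 50327 to 91797 CPM. S100A12, CD4 and CSF3R of that list also helped to name the M-MDSC-like class, so its sum is partly set by the naming. These names were rebuilt from the counts, so cell numbers may differ from those of the study. The M-MDSC-like class was larger than the study's cluster of M-MDSC and may hold cells that were placed in other monocyte clusters there. The study's own lists include IL1B and IL18 for M-MDSC, IL1R2 for neutrophils and IL18R1 for Th1-like CD4 T cells. They also include IL1B for CD4-positive monocytes. No such class was named here, and the M-MDSC-like cluster had CD4 at 624.4 CPM, so it may hold some of those monocytes. High levels of these members in those classes are therefore not independent of the naming. Healthy dog 7 stood apart, because neutrophils were 38.9% of its leukocytes and it gave 34.3% of all neutrophils.

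The ligands were found mostly in the myeloid cells and the receptors were divided between myeloid and T cells. The heat map of relative levels shows this layout for the 21 classes that at least 5 dogs filled with 25 or more cells.

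**Figure D1:**
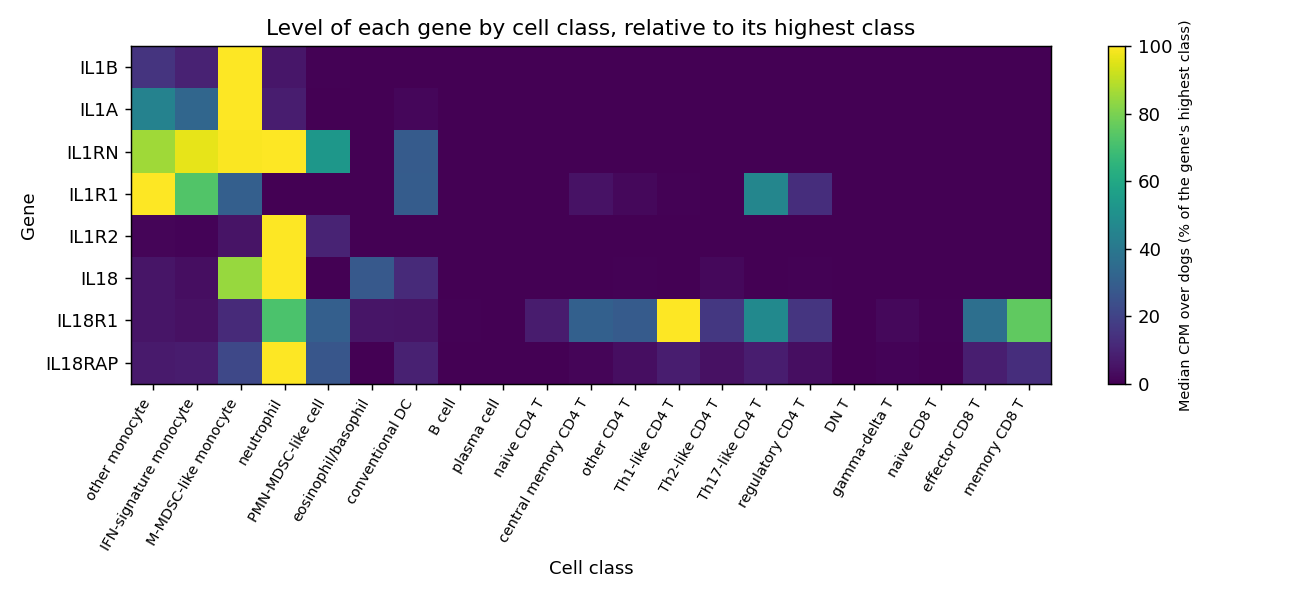
Each row is a family member and each column a cell class, and the colour gives the median CPM over dogs as a percentage of that gene's highest class. IL1B and IL1A peaked in M-MDSC-like monocytes (1537 and 122.9 CPM), IL1R2, IL18 and IL18RAP in neutrophils (1136, 573.9 and 662.3 CPM), IL1R1 in other monocytes (99.1 CPM) and IL18R1 in Th1-like CD4 T cells (245.1 CPM).

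IL1B, the inducible agonist of the family, was a monocyte transcript. Monocytes were 19.2% of leukocytes and gave 98.0% of the 76049 IL1B UMIs. M-MDSC-like monocytes were 3.01% of leukocytes and gave 39.8% of the IL1B UMIs (median over dogs 44.8%, range 25.9 to 59.5%). Their IL1B level had a median of 1537 CPM over 17 dogs, against 231.6 CPM in other monocytes, 92.2 CPM in neutrophils and 0.508 CPM in B cells. Within a dog, M-MDSC-like monocytes exceeded other monocytes by 2.86 ± 1.02 on the log2(CPM + 1) scale (mean ± SD), and did so in 17 of 17 dogs. Other monocytes and neutrophils did not differ beyond their spread, at 0.76 ± 2.06 on the log2 scale and with monocytes higher in 11 of 17 dogs. Cells below 1000 UMIs were left out of this and every later thinned share. After each remaining cell was thinned to 1000 UMIs, 52.6% of M-MDSC-like monocytes (95% Wilson interval 50.5 to 54.6%) held an IL1B UMI, compared with 16.5% of other monocytes, 4.55% of neutrophils and 0.0883% of B cells. Median depth before thinning was 6807.5 UMIs in M-MDSC-like monocytes and 4014.5 UMIs in B cells, and the shares without thinning were 69.2% and 0.336%. Intervals on such shares cover counting error only.

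IL1A, the agonist that needs no inflammasome step, shared the monocyte pattern. Monocytes gave 98.3% of its 15818 UMIs (range over dogs 61.1 to 100%). Its median level was 122.9 CPM in M-MDSC-like monocytes, 54.3 CPM in other monocytes and 9.68 CPM in neutrophils, and M-MDSC-like cells exceeded other monocytes in 17 of 17 dogs, by 0.83 ± 0.55 (log2, SD). Dendritic cells had little of either agonist, with conventional dendritic cell medians of 0.997 CPM for IL1B and 2.24 CPM for IL1A over 14 dogs.

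IL1RN, the antagonist, was found in monocytes and neutrophils at similar medians. These were 34.7 CPM in neutrophils, 34.5 CPM in M-MDSC-like monocytes, 33.5 CPM in monocytes with an interferon signature, 29.8 CPM in other monocytes and 18.4 CPM in PMN-MDSC-like cells (granulocytic cells with granule transcripts such as CAMP and LTF), and none of the neighbours in that order differed beyond their spread. Conventional dendritic cells came next at 10.0 CPM, below PMN-MDSC-like cells in 4 of 4 dogs and below other monocytes in 14 of 14. Eosinophils and basophils, taken as a single class, and the lymphocytes were listed at a median of 0.

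IL1R1, the receptor that carries the IL-1 signal, was found in monocytes, in conventional dendritic cells and in some classes of CD4 T cells. Monocytes gave 89.7% of its 15822 UMIs (range over dogs 72.9 to 94.97%). Here the order of the monocytes was turned round, since M-MDSC-like cells had a median of 30.2 CPM and other monocytes 99.1 CPM, and the first were lower in 17 of 17 dogs (a difference of -1.71 ± 0.56, log2, SD). Th17-like CD4 T cells had a median of 45.3 CPM and a range of 10.2 to 156.8 CPM. In naive CD4 T cells the median was 0.333 CPM, and within a dog the Th17-like cells exceeded them by 5.08 ± 1.11 (log2, SD) in 17 of 17 dogs. Conventional dendritic cells had 29.0 CPM over 14 dogs and did not differ from M-MDSC-like monocytes beyond the spread (higher in the latter in 6 of 14 dogs). Regulatory T cells, at 13.1 CPM, exceeded naive cells in 17 of 17 dogs, and central memory CD4 T cells had 4.66 CPM. Th17-like cells were 2.01% of leukocytes and gave 3.13% of the IL1R1 UMIs. CD34-positive cells, which no dog filled with 25 cells and which were not ranked, were 0.168% of leukocytes and gave 1.15%. Neutrophils were listed at a median of 0 CPM. In thinned cells, IL1R1 was detected in 8.47% of other monocytes, 4.75% of Th17-like cells (3.79 to 5.95%), 0.269% of neutrophils and 0.0294% of B cells.

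IL1R2, the decoy, was mainly a neutrophil transcript. Neutrophils were 6.62% of leukocytes and gave 64.9% of the 15118 IL1R2 UMIs (median over dogs 68.9%, range 17.9 to 93.0%), and monocytes gave 28.6% (range 6.12 to 77.1%). The neutrophil median was 1136 CPM over 17 dogs, and the next class, PMN-MDSC-like cells, had 111.1 CPM over 5 dogs, all with OS. Neutrophils exceeded those cells by 3.16 ± 0.78 (log2, SD) in 5 of 5 dogs. M-MDSC-like monocytes had 61.3 CPM and other monocytes 14.8 CPM, while eosinophils and basophils were listed at a median of 0. Thinned neutrophils held an IL1R2 UMI in 45.0% of cells (43.7 to 46.5%) at a median depth of 1724 UMIs before thinning, and thinned B cells in 0.0294%.

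IL18, unlike the IL-1 agonists, was found at similar CPM in neutrophils and M-MDSC-like monocytes. The medians were 573.9 and 485.1 CPM, and the pair did not differ beyond its spread (0.09 ± 1.01, log2, SD, with neutrophils higher in 9 of 17 dogs). CPM is relative to the total of each class. M-MDSC-like monocytes, 3.01% of leukocytes, gave 36.2% of the 22744 IL18 UMIs, and neutrophils, 6.62% of leukocytes, gave 29.2%. All monocytes together gave 59.5%. Other monocytes had 32.4 CPM, and M-MDSC-like cells exceeded them by 3.76 ± 0.55 in 17 of 17 dogs. Eosinophils and basophils had 161.3 CPM over 15 dogs, and conventional dendritic cells 67.9 CPM over 14 dogs. Among T cells, Th2-like CD4 cells had 12.4 CPM against 0.999 CPM in naive CD4 cells, and were higher in 17 of 17 dogs by 3.08 ± 0.88 (log2, SD). The share of thinned cells with an IL18 UMI was 31.6% in M-MDSC-like monocytes, 24.1% in neutrophils, 15.3% in eosinophils and basophils, 6.89% in conventional dendritic cells, 1.21% in Th2-like cells (0.880 to 1.67%) and 0.0883% in B cells. For eosinophils and basophils this covers only the deeper cells, since a cluster of 890 of them had a median of 1004 UMIs. PMN-MDSC-like cells, over 5 dogs with OS, were listed at a median of 0 CPM for IL18, in contrast to their IL1R2.

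IL18R1, the ligand-binding chain of the IL-18 receptor, had most of its UMIs in T and NK cells, while neutrophils had 1 of the highest levels per class. CD4 T cells were 35.8% of leukocytes, CD8 T and NK cells 19.2% and neutrophils 6.62%, and shares of UMIs depend on such cell numbers. The study reports that the number of neutrophils isolated varied markedly between samples. CD4 T cells gave 49.6% of its 24080 UMIs (range over dogs 20.2 to 73.8%) and CD8 T and NK cells gave 27.2% (range 8.99 to 58.8%), while neutrophils gave 7.98% (range 1.505 to 47.4%). NK and NK T cells had 25 cells in only 4 and 3 dogs and were not ranked. Among the ranked classes the highest medians were 245.1 CPM in Th1-like CD4 T cells, 185.8 CPM in memory CD8 T cells, 176.0 CPM in neutrophils, 116.6 CPM in Th17-like cells and 89.2 CPM in effector CD8 T cells. Neighbours in that order did not differ beyond their spread. Th1-like cells did exceed naive CD4 T cells, by 3.62 ± 0.67 (log2, SD) in 17 of 17 dogs, and effector exceeded naive CD8 T cells by 5.18 ± 1.36 in 16 of 16 dogs.

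IL18RAP, the accessory chain that the receptor needs to signal, had its highest median in neutrophils and was also found in PMN-MDSC-like cells, monocytes, conventional dendritic cells and antigen-experienced T cells. Its median was 662.3 CPM in neutrophils, 177.7 CPM in PMN-MDSC-like cells over 5 dogs, all with OS, and 143.7 CPM in M-MDSC-like monocytes. Conventional dendritic cells had 61.01 CPM over 14 dogs. Memory CD8 T cells had 87.8 CPM, effector CD8 T cells 55.0 CPM, Th17-like cells 53.9 CPM and Th1-like cells 51.8 CPM, while naive CD4 and naive CD8 T cells had medians of 0.434 and 0 CPM. Th1-like cells exceeded naive CD4 cells by 5.11 ± 0.63 (log2, SD) in 17 of 17 dogs, Th17-like cells by 5.31 ± 0.57 in 17 of 17, and effector exceeded naive CD8 cells by 5.56 ± 0.67 in 16 of 16. The T cell classes did not stand in the same order for both chains, since Th17-like cells were below Th1-like cells for IL18R1 in 17 of 17 dogs and above them for IL18RAP in 12 of 17, within the spread. In thinned cells IL18RAP was found in 45.3% of neutrophils, 8.76% of memory CD8 T cells, 4.75% of monocytes and 0.103% of B cells. IL18R1 was found in 17.7% of neutrophils, 16.6% of memory CD8 T cells, 1.46% of monocytes and 0.177% of B cells.

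The genes most like each member in their levels over the 21 classes were taken by Pearson's r, as a description. IL1B was closest to KCNJ2, IL37 and PTGS2 (r = 0.984, 0.980 and 0.977), IL1A to MAFF, HGF and PTGS2, and IL1RN to ENSCAFG00000014493, TREM1 and MGST1. IL1R2 was closest to LRG1 (r = 0.973), IL18 to CLEC7A (0.937), IL1R1 to FRMD4B (0.879) and IL18RAP to TRPV2 (0.878). IL18R1 was closest to its partner IL18RAP (0.773). Over the 17 dogs within M-MDSC-like monocytes, the gene closest to IL1B was IL37 (0.977), and that closest to IL1A was NFKBIA (0.961). In neutrophils the genes closest to IL18RAP were IL18R1 (0.799) and IL1R2 (0.787), and VCAN was closest to IL1R2 (0.857). Classes and genes of the same libraries share depth, and these genes are the highest of all those ranked. KCNJ2 was also among the markers that named the M-MDSC-like class.

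Healthy dogs and dogs with OS were compared on counts summed over the cells of a class in each dog, so that the dog was the replicate. In all leukocytes together, edgeR called 0 of 16238 genes, or 0%, where a call needed a log2 fold change past 0.58 in either direction together with an adjusted p under 0.01. DESeq2 called 3. Genes with an unadjusted edgeR p under 0.05 are spoken of as marked, and these were 912, or 5.62% (2.52% higher and 3.09% lower in OS). IL1R1 was the only member of the 8 at that unadjusted level. The other members ranged from -0.52 ± 0.42 for IL18RAP to 1.43 ± 0.77 for IL1B (log2 fold change, SE). With any 1 dog left out IL1B ranged from 1.01 to 2.16 (edgeR unadjusted p from 0.0138 to 0.187), the highest without healthy dog 1. Without healthy dog 7, the dog with the most neutrophils, IL18RAP turned to 0.17. The median log2 fold change was 0.10 for the members and -0.0036 for all genes.

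**Figure D2:**
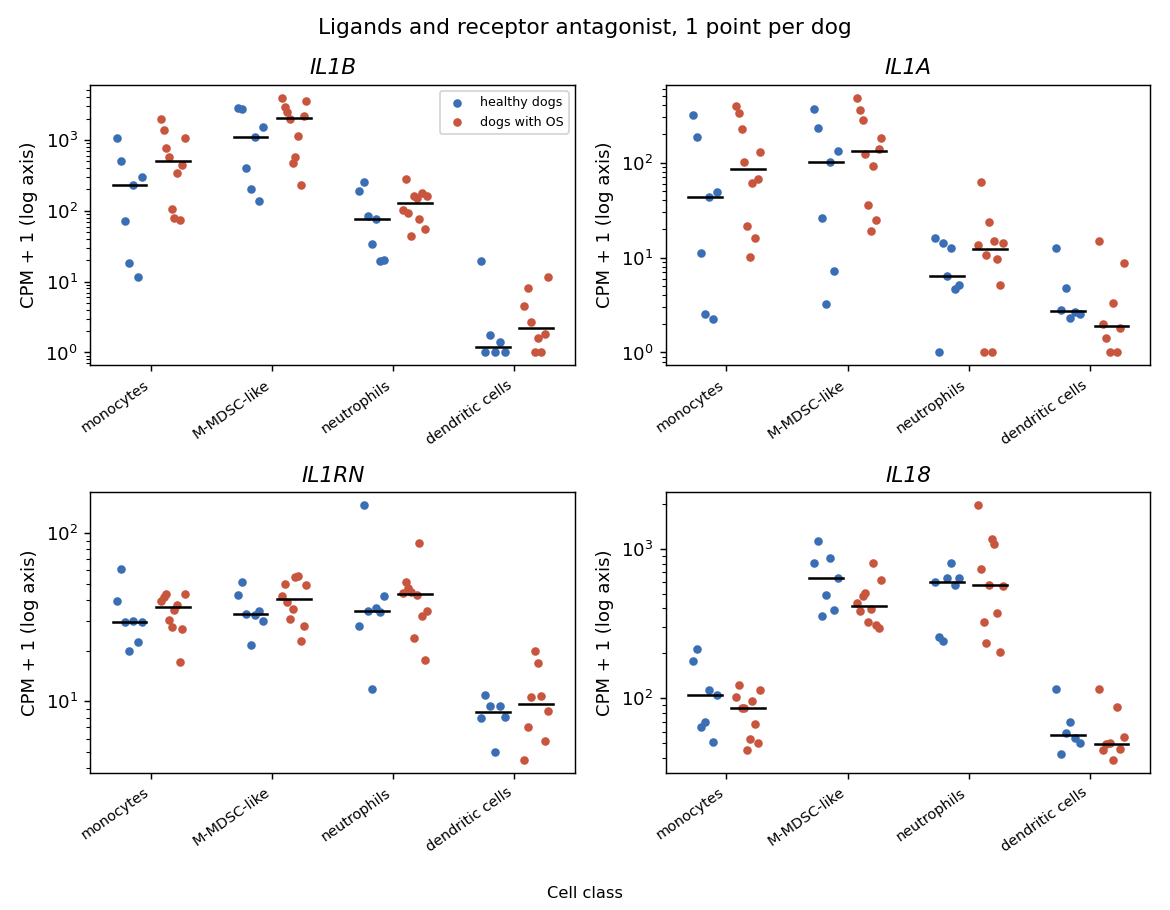
CPM plus 1 on a log axis of IL1B, IL1A, IL1RN and IL18 in monocytes, M-MDSC-like monocytes, neutrophils and dendritic cells, with 1 point per dog, healthy dogs and dogs with OS side by side and a black bar at each median. IL1B in monocytes ran from 10.5 to 1054 CPM in healthy dogs and from 74.3 to 1947 CPM in dogs with OS, and the groups overlap for every ligand.

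Monocytes carried nearly all of the IL-1 agonist transcripts, and their IL1B level varied widely between dogs. Monocyte IL1B had a lowest, median and highest value of 10.5, 230.1 and 1054 CPM in the 7 healthy dogs. In the 10 dogs with OS these were 74.3, 507.9 and 1947 CPM. The OS median was the higher, 3 of 10 dogs with OS lay above every healthy dog, and the groups otherwise overlapped. The log2 fold change was 1.17 with a standard error (SE) of 0.81, and edgeR's quasi-likelihood test gave an unadjusted p of 0.161 and a Benjamini-Hochberg adjusted p of 0.852. With any 1 dog left out the log2 fold change ranged from 0.84 to 1.98 (edgeR unadjusted p from 0.0270 to 0.305). The top of that range came without healthy dog 1, which had the highest healthy level. In M-MDSC-like monocytes IL1B was 138.5, 1088 and 2837 CPM in healthy dogs and 230.1, 2066 and 3956 CPM in dogs with OS. The log2 fold change was 0.66 ± 0.59 (SE). With any 1 dog left out it ranged from 0.46 to 1.04 (edgeR unadjusted p from 0.0978 to 0.427), the highest without healthy dog 1. Healthy dog 6 and OS dog 8 were the lowest of their groups in both classes.

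IL1A in monocytes was 1.25, 42.7 and 316.2 CPM in healthy dogs and 9.03, 84.1 and 397.9 CPM in dogs with OS. Of the 10 dogs with OS, 2 lay above the healthy range, and the log2 fold change of 0.67 ± 0.90 (SE) was smaller than its error. It was 1.63 without healthy dog 1 and 0.30 without OS dog 1, the highest of their groups. IL1RN in monocytes was 18.9, 28.7 and 60.5 CPM against 16.0, 35.2 and 42.4 CPM, a narrower range than that of the agonists. Its log2 fold change was 0.11 ± 0.21 (SE), from 0.022 without healthy dog 4 to 0.29 without healthy dog 2. The log2 ratio of IL1RN to IL1B, with 1 CPM added to each, was read only for its difference between the groups. It was -2.04 ± 2.05 (SD) in healthy monocytes and -3.63 ± 1.46 (SD) in OS monocytes. The difference was -1.59 (exact two-sided permutation test over 19448 permutations, p = 0.0798, adjusted p = 0.160 over 2 ratios). It passed 0.05, unadjusted, without healthy dog 1 (difference -2.04, exact permutation p = 0.0275) or without OS dog 6 (-1.87), and not without any other single dog. In neutrophils the ratio was -0.80 ± 1.35 in healthy dogs and -1.54 ± 1.03 in dogs with OS, with a difference of -0.74 (exact permutation p = 0.216) that was -0.47 without healthy dog 6 and -0.43 without healthy dog 7.

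In monocytes edgeR called 0 of 14021 genes and marked 877 (6.25%, with 3.26% higher and 3% lower in OS), while DESeq2 called 2. IL1R1 was the single member among them. Its monocyte level was 56.9, 84.7 and 98.2 CPM in healthy dogs and 65.8, 89.3 and 235.5 CPM in dogs with OS. OS dog 3, which also had the smallest library, gave the highest value, and without it the log2 fold change moved from 0.42 ± 0.20 (SE, unadjusted p = 0.0497) to 0.26 (p = 0.112). Over all leukocytes IL1R1 was 12.99, 26.5 and 33.0 CPM in healthy dogs and 15.2, 39.4 and 82.8 CPM in dogs with OS, and 7 of 10 dogs with OS lay above every healthy dog. The log2 fold change there was 0.77 ± 0.26 (SE, unadjusted p = 0.00757, edgeR adjusted p = 0.748). Monocytes, the main source of the transcript, were 9.95 to 21.8% of leukocytes in healthy dogs (median 16.0%) and 7.07 to 43.9% in dogs with OS (median 22.4%), so in that total a different share of monocytes and a different level per monocyte cannot be told apart. In CD4 T cells IL1R1 was 5.34 CPM at the healthy median and 6.39 CPM at the OS median, with a log2 fold change of 0.78 ± 0.32 (SE). Th17-like cells, the CD4 class with the highest median, were 3.25 to 6.82% of CD4 T cells in healthy dogs and 1.95 to 11.2% in dogs with OS. Within Th17-like cells the level was 10.2, 39.3 and 74.1 CPM in healthy dogs and 18.8, 51.2 and 156.8 CPM in dogs with OS.

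The other 4 members overlapped between the groups in monocytes, and none was marked. IL1R2 was 2.39, 12.8 and 127.3 CPM in healthy dogs and 10.9, 20.2 and 139.6 CPM in dogs with OS. Its log2 fold change of 0.27 ± 0.66 (SE) was -0.15 without OS dog 3 and 1.12 without healthy dog 2, the highest of their groups. IL18 was 50.2, 103.7 and 211.8 CPM against 44.3, 85.2 and 121.4 CPM, at -0.41 ± 0.27 (SE), and at -0.23 without healthy dog 1 or healthy dog 2. With the M-MDSC-like cells left out of the monocytes it was -0.77 and marked. IL18R1 was 2.49, 17.8 and 29.1 CPM against 1.81, 14.5 and 58.6 CPM, at 0.42 ± 0.54 (SE), from 0.058 without OS dog 2 to 0.73 without healthy dog 1. IL18RAP was 5.27, 56.5 and 91.5 CPM against 6.06, 46.9 and 103.2 CPM, and its log2 fold change of -0.018 ± 0.57 (SE) lay from -0.22 to 0.22 with 1 dog left out.

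**Figure D3:**
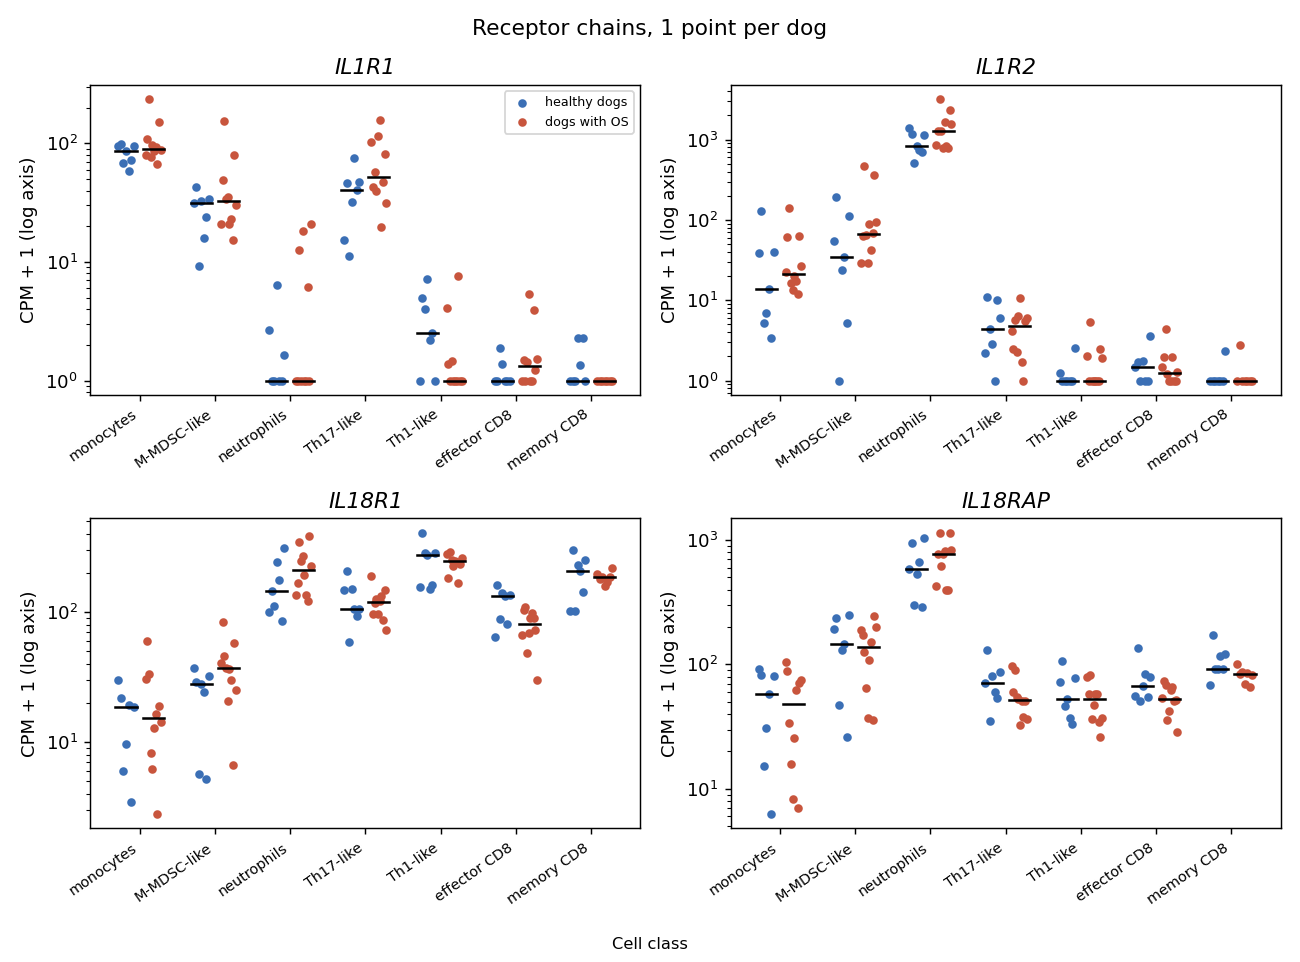
CPM plus 1 on a log axis of IL1R1, IL1R2, IL18R1 and IL18RAP by cell class, with 1 point per dog, healthy dogs and dogs with OS side by side and a black bar at each median. Neutrophil IL1R2 ran from 510.4 to 1386 CPM in healthy dogs and from 777.8 to 3193 CPM in dogs with OS, and no receptor separated the groups.

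In M-MDSC-like monocytes edgeR called 0 of 10881 genes and marked 703 (6.46%, with 4.17% higher and 2.29% lower in OS), while DESeq2 called 1. IL18 was the member among them, and it was lower in OS. Its level was 354.3, 638.6 and 1136 CPM in healthy dogs and 294.4, 412.7 and 802.8 CPM in dogs with OS. Only 1 of 10 dogs with OS exceeded the healthy median, and 3 lay under the lowest healthy dog. The log2 fold change was -0.50 ± 0.24 (SE, unadjusted p = 0.0462, edgeR adjusted p = 0.760), and it was -0.33 without healthy dog 2 (unadjusted p = 0.170) and -0.29 with doublets kept, not marked in either. The neutrophil marker sum of these cells, as a measure of how much they resembled neutrophils, had medians of 14732 CPM in healthy dogs and 14198 CPM in dogs with OS. Other marker sums had medians, in the same order, of 1031 and 752.0 CPM for B cells, 30.8 and 60.4 CPM for platelets and 27990 and 29348 CPM for monocytes. The B cell sum was lower in all leukocytes, which include the B cells (458.2 and 400.2 CPM). In M-MDSC-like cells it therefore cannot be read as RNA from B cells alone. The part of the marker sums in the IL18 difference was not tested. IL1R2 in these cells was 0, 33.8 and 192.6 CPM in healthy dogs and 27.9, 65.6 and 471.4 CPM in dogs with OS, which gave a log2 fold change of 1.09 ± 0.68 (SE), with OS dog 3 the highest. It was 1.67 without healthy dog 2 (edgeR unadjusted p = 0.0304) and 0.69 without OS dog 3 (p = 0.293) or OS dog 9 (p = 0.308). IL18R1 was 4.197, 27.3 and 36.5 CPM against 5.68, 36.2 and 82.4 CPM, at 0.77 ± 0.43 (SE), and 5 of 10 dogs with OS lay above every healthy dog. Without OS dog 2 it was 0.51. M-MDSC-like cells were 7.23 to 18.8% of monocytes in healthy dogs and 12.0 to 28.4% in dogs with OS.

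The remaining members had overlapping groups in M-MDSC-like cells. IL1A was 2.27, 99.3 and 367.0 CPM in healthy dogs and 17.9, 131.3 and 482.0 CPM in dogs with OS, with a log2 fold change of 0.49 ± 0.68 (SE) that ran from 0.14 without OS dog 1 to 1.17 without healthy dog 1. IL1RN was 20.5, 32.0 and 50.2 CPM against 21.8, 39.4 and 54.8 CPM, at 0.29 ± 0.22 (SE). IL1R1 was 8.30, 30.2 and 42.1 CPM against 14.2, 31.4 and 154.8 CPM, at 0.72 ± 0.43 (SE), at 0.42 without OS dog 3 and at 0.40 with doublets kept. IL18RAP was 25.2, 143.7 and 247.2 CPM against 35.03, 137.4 and 242.8 CPM, at -0.066 ± 0.41 (SE), and its sign turned without some of the dogs.

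Neutrophils showed the decoy receptor at its highest. IL1R2 in neutrophils was 510.4, 839.7 and 1386 CPM in healthy dogs and 777.8, 1269 and 3193 CPM in dogs with OS. The ranges overlapped, with 4 of 10 dogs with OS above every healthy dog and 7 above the healthy median. The log2 fold change was 0.61 ± 0.25 (SE, unadjusted p = 0.0203, edgeR adjusted p = 1.00), and with any 1 dog left out it ranged from 0.45 to 0.76, with unadjusted p from 0.0051 to 0.0697 and above 0.05 without healthy dog 3, healthy dog 5 or OS dog 3. Here edgeR called 0 of 9741 genes and marked 431 (4.42%, with 2.53% higher and 1.9% lower in OS), while DESeq2 called 0. IL1R2 was 1 of 3 members marked. The others were IL1A, at medians of 5.42 and 11.2 CPM, and IL1R1, whose median was 0 CPM in both groups. The IL1A log2 fold change of 1.14 ± 0.55 (SE) dropped to 0.42 without OS dog 2. Of the rest, IL18 was 240.2, 599.2 and 810.5 CPM in healthy dogs and 202.9, 569.5 and 1965 CPM in dogs with OS, where OS dog 1 was the highest. The IL18 log2 fold change was 0.42 ± 0.34 (SE), and 0.10 without that dog. IL18RAP was 288.8, 580.7 and 1035 CPM against 394.1, 770.7 and 1147 CPM, a log2 fold change of 0.20 ± 0.24 (SE), from 0.060 without healthy dog 3 to 0.40 without healthy dog 7. IL1RN was 10.8, 33.4 and 145.5 CPM against 16.6, 42.5 and 86.0 CPM, and its log2 fold change of -0.0015 ± 0.43 (SE) was near 0. Without healthy dog 2, the highest, it was 0.39. IL1B in neutrophils was 18.3, 76.4 and 251.7 CPM in healthy dogs and 43.5, 126.4 and 282.3 CPM in dogs with OS, which gave a log2 fold change of 0.57 ± 0.41 (SE). It was 0.98 without healthy dog 1 (edgeR unadjusted p = 0.0252) and 0.89 without healthy dog 2 (p = 0.0385). Without healthy dog 7 it was 0.32 (p = 0.409), and without OS dog 2 it was 0.30 (p = 0.450). IL18R1 was 84.1, 145.5 and 309.2 CPM against 121.0, 209.2 and 380.9 CPM, at 0.32 ± 0.25 (SE). Without healthy dog 7 it was 0.62 (edgeR unadjusted p = 0.0173), and without OS dog 9 it was 0.19 (p = 0.438).

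CD8 T and NK cells had lower medians of both IL-18 receptor chains in OS. IL18R1 was 46.4, 108.1 and 156.6 CPM in healthy dogs and 29.2, 73.4 and 118.5 CPM in dogs with OS, and 1 of 10 dogs with OS exceeded the healthy median. IL18RAP was 37.1, 53.4 and 103.5 CPM against 24.9, 42.4 and 64.1 CPM, and 4 of 10 dogs with OS were under every healthy dog. Log2 fold changes were -0.52 ± 0.24 for IL18R1 and -0.56 ± 0.20 for IL18RAP (SE), with unadjusted p of 0.0465 and 0.0105 and an edgeR adjusted p of 1.00 for each. With any 1 dog left out they ranged from -0.64 to -0.40 (p from 0.0119 to 0.126) and from -0.65 to -0.46 (p from 0.0035 to 0.0345). In these cells edgeR called 0 of 13578 genes and marked 506 (3.73%, with 2.11% higher and 1.61% lower in OS), while DESeq2 called 0. The other member marked, IL1B, was higher in OS but at medians of 0.155 and 0.610 CPM. Naive CD8 cells, which were nearly without both chains, were 9.35, 23.0 and 36.5% of the CD8 T and NK cells in healthy dogs and 2.12, 18.7 and 49.3% in dogs with OS. Within effector CD8 T cells IL18R1 was 63.4, 132.3 and 161.0 CPM in healthy dogs and 28.9, 80.5 and 108.0 CPM in dogs with OS. IL18RAP in effector cells was 49.6, 65.6 and 135.4 CPM against 27.6, 52.0 and 73.3 CPM. Memory CD8 T cells, with the highest medians of both chains among the ranked CD8 classes, reached 25 cells in 7 of 7 healthy dogs. They did so in 7 of 10 dogs with OS. In them the medians were 206.4 and 185.6 CPM for IL18R1 and 91.4 and 83.3 CPM for IL18RAP, healthy first. The part of the subset shares in the lower totals was not tested. In the CD8 T and NK cells, marker sums of other cell types also differed in median between healthy dogs and dogs with OS. These were 44.0 and 19.0 CPM for B cells and 22.6 and 46.1 CPM for platelets, while the T cell sum had 2878 and 2988 CPM. Their part was not tested.

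Among CD4 T cells edgeR called 0 of 14505 genes and marked 516 (3.56%, with 1.88% higher and 1.68% lower in OS), IL1R1 among them, and DESeq2 called 0. IL18R1 there was 47.0, 70.6 and 119.6 CPM in healthy dogs and 52.8, 91.3 and 117.5 CPM in dogs with OS, with a log2 fold change of 0.25 ± 0.19 (SE), and 0.16 without healthy dog 5. IL18RAP was 15.8, 29.2 and 46.9 CPM against 11.6, 24.3 and 41.8 CPM, at -0.24 ± 0.24 (SE), and at -0.12 without healthy dog 7. Dendritic cells, available from 6 healthy dogs and 8 dogs with OS, had 0 of 11536 genes called by edgeR, 418 marked (3.62%, with 1.72% higher and 1.91% lower in OS) and 1 called by DESeq2. None of the 8 members was marked in them. IL18 was 41.6, 55.6 and 115.1 CPM in healthy dogs and 37.7, 48.8 and 114.5 CPM in dogs with OS, with a log2 fold change of -0.11 ± 0.22 (SE) that was 0.06 without healthy dog 1. IL18R1 was 4.19, 17.1 and 29.9 CPM against 2.01, 5.94 and 26.5 CPM, at -0.78 ± 0.45 (SE). With any 1 dog left out it ranged from -1.34 to -0.62 (edgeR unadjusted p from 0.0038 to 0.195). The value of -1.34 came without OS dog 9, the highest of its group. With doublets kept it was -0.44. IL18RAP was 8.80, 71.1 and 105.2 CPM against 6.11, 38.7 and 145.8 CPM, at -0.70 ± 0.48 (SE), and at -0.45 without healthy dog 7. IL1R1 was 3.97, 16.7 and 36.8 CPM against 14.1, 26.3 and 38.2 CPM, at 0.54 ± 0.27 (SE), and as low as 0.30 under another clustering resolution.

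**Figure D4:**
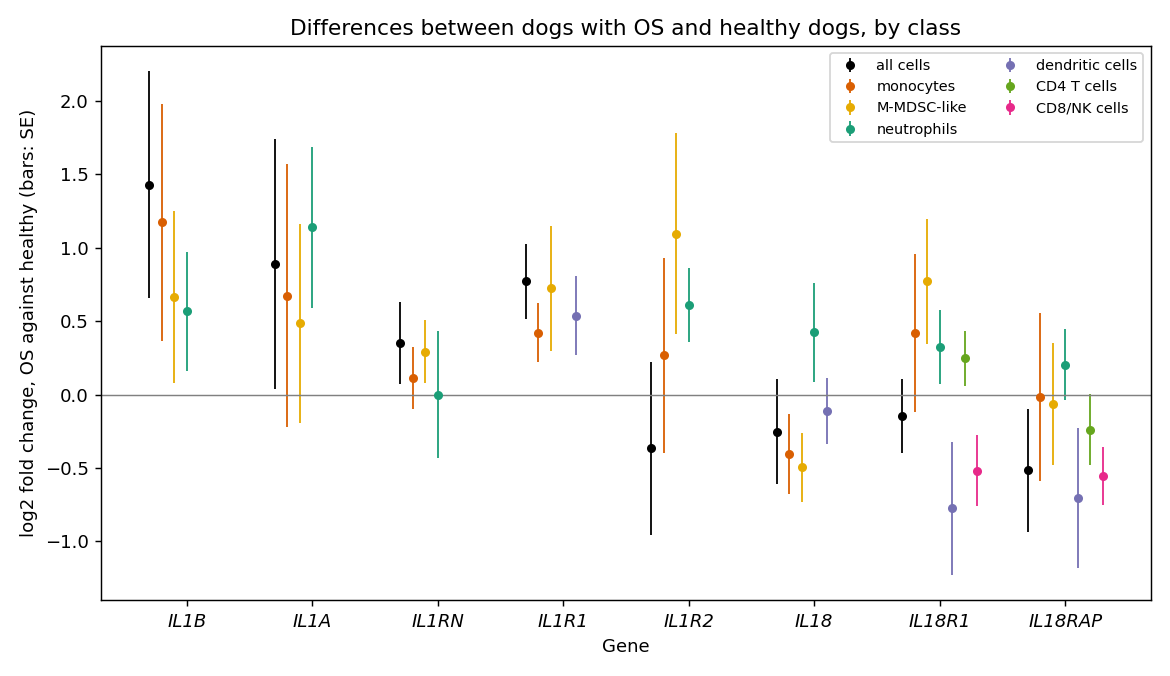
Log2 fold change of OS against healthy for each member (horizontal axis) in each class where it had a mean of at least 10 CPM, with bars of 1 SE and a colour per class. Monocyte IL1B (1.17), neutrophil IL1R2 (0.61), all-leukocyte IL1R1 (0.77) and CD8/NK IL18RAP (-0.56) are shown with their errors, and none of them passed the adjusted test.

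The members with a mean of at least 10 CPM in both monocytes and neutrophils were compared for whether the OS difference itself differed between those classes. Of 7 members, IL18 had the smallest p, with OS minus healthy lower in monocytes than in neutrophils by 0.56 on the log2(CPM + 1) scale (exact two-sided permutation test over dogs, p = 0.2998, adjusted p = 0.860). IL1B gave 0.84 in the other direction (exact permutation p = 0.380). The largest, 1.10 for IL1A, had an exact permutation p of 0.416.

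Some members varied together from dog to dog. In monocytes, log2(CPM + 1) of IL1B and IL1A correlated over the 10 dogs with OS (Pearson r = 0.977, permutation p = 2e-05; Spearman rho = 0.976, p = 5e-05) and over all 17 dogs (r = 0.984, rho = 0.973, permutation p = 1e-05 for both, the smallest the resamples can give). Without the 2 dogs farthest from the median IL1B level, r was 0.961 and 0.971. IL1B and IL1RN correlated more loosely, with r = 0.700 over dogs with OS (permutation p = 0.0197, rho = 0.721, p = 0.0240) and r = 0.730 over all dogs (permutation p = 0.00087, rho = 0.794, p = 0.00026). Without 2 dogs these were 0.719 and 0.624. The IL-18 receptor chains correlated in CD8 T and NK cells, with r = 0.901 over dogs with OS (permutation p = 0.00036, rho = 0.891, p = 0.00098) and r = 0.917 over all dogs (rho = 0.917, permutation p = 1e-05 for both). Without 2 dogs they gave 0.888 and 0.898. Over these 6 relations the Benjamini-Hochberg adjusted p was at most 0.0240.

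**Figure D5:**
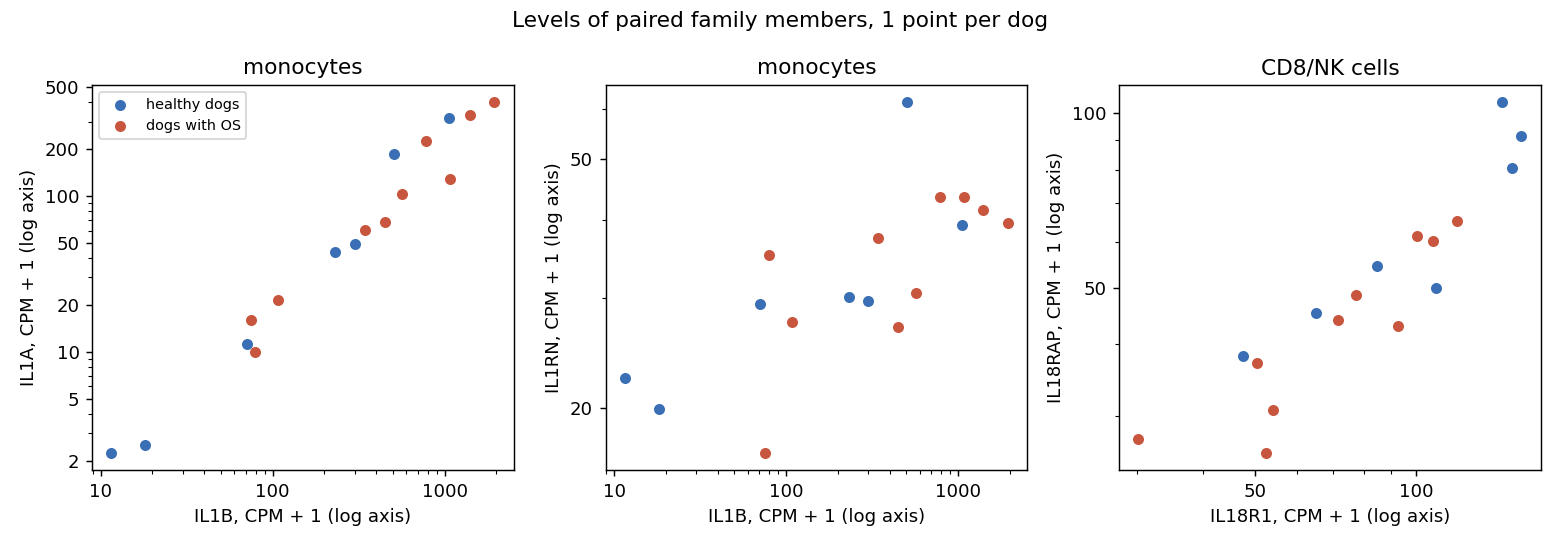
Levels of paired members, CPM plus 1 on log axes, with 1 point per dog and colours for healthy dogs and dogs with OS. The points of IL1B and IL1A in monocytes lie along a line (r = 0.984 over 17 dogs), those of IL1B and IL1RN scatter more (r = 0.730), and IL18R1 and IL18RAP in CD8 T and NK cells follow each other (r = 0.917).

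Monocyte IL1B also moved with immediate early genes, which respond within minutes to stimulation or handling. Their summed monocyte level, over the 8 of 9 listed genes that were measured, was 307.5, 875.0 and 2365 CPM in healthy dogs and 412.7, 1336 and 2429 CPM in dogs with OS. Its log2 value correlated with that of IL1B over 17 dogs (r = 0.898, permutation p = 1e-05, rho = 0.890, p = 2e-05, adjusted p = 4e-05 and 8e-05 over 12 relations) and gave r = 0.885 without 2 dogs. The part of these genes in the spread of IL1B was not tested. A dog's monocyte and neutrophil levels correlated for IL1R2 (r = 0.777, permutation p = 0.00032, rho = 0.811, p = 0.00017) and IL1RN (r = 0.698, permutation p = 0.00222, rho = 0.725, p = 0.00136). Without the 2 dogs farthest from the median, r was 0.781 and 0.649. For IL1B the same relation had r = 0.473 (permutation p = 0.0552, rho = 0.453, p = 0.0686) and r = 0.0916 without 2 dogs. The other 4 members gave r = 0.463 for IL18RAP (permutation p = 0.0631, rho = 0.380, p = 0.135), 0.253 for IL18R1 (p = 0.327, rho = 0.181, p = 0.483), 0.159 for IL1A (p = 0.544, rho = 0.275, p = 0.284) and 0.0764 for IL18 (p = 0.770, rho = 0.255, p = 0.323). Without 2 dogs their r was 0.181, -0.11, 0.115 and 0.323. In neutrophils IL18R1 and IL18RAP correlated with r = 0.799 (permutation p = 0.00017, rho = 0.801, p = 0.00019, 0.705 without 2 dogs). IL18R1 was the gene closest to IL18RAP of all those ranked in neutrophils, and these p-values do not allow for that search.

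The remaining genes of the pathway were read in the same fits. Of the precursor-processing list, 8 of 10 genes were measured. In monocytes 2 of the 8 tested were marked as higher in OS, beside 3.26% of all genes, and none as lower. TXNIP, a redox regulator that binds NLRP3, had means of 73.6 CPM in healthy dogs and 127.0 CPM in dogs with OS, with a log2 fold change of 0.81 ± 0.22 (SE, unadjusted p = 0.0013, edgeR adjusted p = 0.707). CASP4, an inflammatory caspase, was at 0.31 ± 0.12. In neutrophils 1 of 7 was marked as higher, beside 2.53% of all genes, and this was TXNIP too (means of 153.7 and 289.1 CPM), at 0.92 ± 0.25 (SE, unadjusted p = 0.00088, edgeR adjusted p = 0.615). PYCARD, the inflammasome adaptor, was at 0.38 ± 0.26 in monocytes and 0.47 ± 0.40 in neutrophils, and was marked in M-MDSC-like monocytes at 0.54 ± 0.18 (SE, unadjusted p = 0.0060), where 2 of 8 genes of the list were marked as higher beside 4.17% of all genes. The other was TXNIP, at 0.76 ± 0.28 (SE, edgeR unadjusted p = 0.0126). In CD8 T and NK cells 1 of 8 was marked as higher, beside 2.11% of all genes, and it was again TXNIP, at 0.54 ± 0.18 (SE, edgeR unadjusted p = 0.0074).

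Of the 15 genes of receptor signalling, all were measured and none was marked in monocytes, M-MDSC-like monocytes or neutrophils. In CD8 T and NK cells 1 of the 15 was marked as higher, beside 2.11% of all genes. That was IL1RAP, the accessory chain that IL1R1 shares with other receptors of the family, named here after its values were seen, at means of 9.75 CPM in healthy dogs and 14.1 CPM in dogs with OS (log2 fold change 0.56 ± 0.21, SE, unadjusted p = 0.0139, edgeR adjusted p = 1.00). IRAK2, a kinase below the receptor, had log2 fold changes of 0.52 ± 0.65 in monocytes and 0.41 ± 0.23 in neutrophils (SE). The NF-kB response list had a median log2 fold change of 0.49 over 12 genes tested in monocytes, beside 0.0095 for all genes, yet 0 of them were marked. PTGS2, the inducible cyclooxygenase, was at 1.12 ± 1.16, TNF at 0.81 ± 1.02 and TNFAIP3, a brake on NF-kB, at 0.77 ± 0.85. In neutrophils the list's median was 0.08 over 10 genes, with NFKBIA, which holds NF-kB in the cytoplasm, marked as higher at 0.85 ± 0.31 (SE, unadjusted p = 0.0101, beside 2.53% of all genes) and PTGS2 at -1.04 ± 0.65. None of these list genes passed the adjusted test in edgeR.

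Of 12 other members of the family listed, 11 were measured and 8 were tested in monocytes, where 3 were marked as higher, beside 3.26% of all genes. Those were IL33, its receptor IL1RL1 and the IL-36 receptor IL1RL2, chosen here after their values were seen, and their means were at most 2.47 CPM in either group. IL37, an anti-inflammatory ligand, was the one with a mean above 10 CPM there, at 1.13 ± 0.84 (SE) in monocytes. IL18BP, the secreted trap for IL-18, had a mean of 527.0 CPM in neutrophils and a log2 fold change of 0.12 ± 0.24. Of the IL-18 response genes in CD8 T and NK cells, STAT4 was at -0.18 ± 0.20, TBX21 at -0.07 ± 0.23 and IL12RB1 at 0.02 ± 0.24 (SE), and 1 of 5 tested was marked as higher, beside 2.11% of all genes. That gene was IFNG, interferon-gamma itself, named here after its values were seen, at means of 0.340 CPM in healthy dogs and 3.32 CPM in dogs with OS (log2 fold change 3.68 ± 1.12, SE, unadjusted p = 0.0035, edgeR adjusted p = 1.00).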

How the data were processed

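Cells of 7 healthy dogs and 10 dogs with OS were counted by the authors, and the deposited values are raw UMI counts per gene and barcode. Per the submitters' processing notes Cell Ranger 7.0.0, Seurat and the build CanFam3.1 were used. The authors ran the alignment once counting introns and once not, and the run behind the deposited counts is not given in the sources used here. Members and gene lists were chosen with earlier results of these data known.

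Cells with 200 to 4500 genes, 500 to 20000 UMIs and under 10% mitochondrial counts were kept. Doublets were scored with Scrublet (in scanpy), and 0.8% per 1000 cells were removed (4.67%). Cells were clustered with scanpy 1.11.5 and igraph 0.11.9 on 2000 variable genes and 30 components, with 20 neighbours and resolution 1, members and pathway genes left out, and named from marker genes. Counts were summed per dog and class (at least 25 cells per dog, at least 10 counts per gene) and tested with edgeR 4.0.16 (quasi-likelihood, Benjamini-Hochberg, adjusted p below 0.01, absolute log2 fold change above 0.58). DESeq2 1.42.0 was the alternative test. Levels are CPM of the class. Log2 levels had 1 CPM added. A neighbour in the order of classes differed beyond its spread where the mean within-dog difference exceeded 1 SD. Shares were taken after thinning to 1000 UMIs, with cells below 1000 UMIs left out and with 95% Wilson intervals. Single values were compared by exact permutation, and correlations by 100000 resamples, in scipy 1.17.1. Members were named in the classes where their mean was at least 10 CPM (in all leukocytes mostly as a range), and the genes named of each pathway list were among the 3 with the largest absolute log2 fold change at that mean. PYCARD in M-MDSC-like monocytes, IL1RAP, IL33, IL1RL1, IL1RL2, IFNG and members below that mean were named after their values were seen. The edgeR script was tested on simulated data.

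Other filters, size factors, cell minimums, doublet treatment, clustering, pseudocounts, a replicate block and leaving out each dog were tried. The 12 relations with immediate early genes, between classes and within subsets, and leaving M-MDSC-like cells out of the monocytes, were chosen after seeing the data. UMI depth sets the counting error that intervals cover, and nothing beyond it. The labels say that each library is a separate dog.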

Additional observations from a re-analysis of the deposited data

Results flagged for a closer look

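Of 78 groups of 6 to 10 dogs tested for 1 value far from the others, 14 had one. The test's rate of 1 in 20 holds for independent groups of normally distributed values. Here it was run on CPM without a log scale, all 14 values were the highest of their group, and the groups share dogs and genes. The 14 therefore cannot be set against that rate. OS dog 3, the smallest library, was the highest of its group for IL1R1 in monocytes (235.5 CPM, next 150.5 CPM) and M-MDSC-like cells (154.8 CPM, next 79.5 CPM), and for IL1R2 in all leukocytes (89.9 CPM, next 48.2 CPM) and monocytes (139.6 CPM, next 62.8 CPM). Healthy dog 7, with 38.9% neutrophils, was the highest for IL1R2 (180.3 CPM, next 48.9 CPM) and IL18RAP (205.6 CPM, next 65.7 CPM) in all leukocytes. Healthy dog 2 was the highest for IL1R2 in monocytes (127.3 CPM, next 39.2 CPM) and IL1RN in neutrophils (145.5 CPM, next 41.5 CPM), where OS dog 7 was also apart from its group (86.0 CPM, next 49.9 CPM). OS dog 1 was the highest for IL1A (147.4 CPM, next 74.1 CPM) and IL18 (105.0 CPM, next 60.9995 CPM) in all leukocytes and for IL18RAP in dendritic cells (145.8 CPM, next 52.1 CPM). OS dog 2 was the highest for IL1A in neutrophils (60.8 CPM, next 22.9 CPM), and healthy dog 1 for IL18 in dendritic cells (115.1 CPM, next 68.8 CPM). Their causes were not tested.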

How the results depend on the processing

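Over 39 member results and 1009 alternatives no member passed the adjusted test (lowest edgeR adjusted p 0.324), and 38 values in 9 results reversed. DESeq2's Wald test called 3 genes in all leukocytes, 2 in monocytes, 1 in M-MDSC-like and 1 in dendritic cells, and leaving out 1 dog gave 0 to 2 calls in monocytes (2 without OS dog 4). Replicate numbers named different dogs (correlations of deviations -0.46 to 0.45, and 1 of 7 numbers correlated best with its own), so the block on replicate number, which gave 15 calls in neutrophils, 0.37 for IL1R2 in all leukocytes and 0.26 for IL1RN in neutrophils, has no pairing in the design. It also moved IL1R2 in M-MDSC-like cells to 0.48, IL18R1 in dendritic cells to -1.42, and in monocytes IL1B to 1.80 and IL1A to 1.62. IL1RN in neutrophils was 0.00799 with DESeq2 size factors, 0.015 with filterByExpr, 0.014 with doublets kept and 0.015 at resolution 1.5. IL18 in dendritic cells was 0.088 with doublets kept and 0.063 at resolution 1.5. IL18RAP in M-MDSC-like cells was 0.071 with doublets kept. IL1R2 in monocytes was -0.14 without M-MDSC-like cells. With a pseudocount of 10 CPM the class difference was 0.016 for IL1RN and -0.17 for IL1R2. Leaving out 1 dog gave these log2 fold change ranges: in all leukocytes IL1R2 -0.59 to 0.81, IL18 -0.47 to 0.15, IL18R1 -0.28 to 0.049 and IL18RAP -0.67 to 0.17 (each reversed without healthy dog 7), in monocytes IL1R2 -0.15 to 1.12 and IL18RAP -0.22 to 0.22, in M-MDSC-like cells IL18RAP -0.25 to 0.11, in neutrophils IL1RN -0.20 to 0.39, in dendritic cells IL18 -0.22 to 0.055. Class differences ranged from -0.18 to 0.15 (IL1RN), -0.12 to 0.63 (IL1R2) and -0.46 to 0.11 (IL18R1), and the monocyte log2 ratio of IL1RN to IL1B from -2.04 to -1.09. Unthinned shares were 35.2% (IL1A, M-MDSC-like), 49.4% (IL1R1, other monocytes), 64.7% (IL18R1, Th1-like) and 59.7% (IL18RAP, neutrophils). The cause was not tested.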
